A study of Mus musculus with 6 samples.

Results

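Type 1 conventional dendritic cells were identified among the CD45+ cells of mouse brain tumors as cells that carried RNA of Xcr1, a chemokine receptor, or Clec9a, a receptor for dead cells. There were 147 such cells among 18269 barcodes of 2 single-cell libraries, 73 in library 1 and 74 in library 2, and the series holds 37490 barcodes in 6 libraries. A cell counted when it had at least 200 detected genes, at most 10% mitochondrial UMIs (unique molecular identifiers, each standing for 1 captured RNA molecule), S100a8 and S100a9 below 0.5% of UMIs, at least 2 UMIs of Xcr1 and Clec9a together, and at least 0.5% of its UMIs from H2-Aa, H2-Ab1, H2-Eb1 and Cd74. It also had at most 2 UMIs of C1qa, C1qb and C1qc together and none of Ccr7. These measured values chose the cells, so the levels of the genes named in the rule are a description and were not tested.

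The mice carried tumors of SB28, a mouse glioblastoma cell line, taken at day 18 after injection of 10000 cells. The labels give 3 groups with 2 libraries each, namely CD45+ cells of the tumor (hematopoietic cells), neutrophils sorted from the tumor and neutrophils sorted from blood, and the labels describe both kinds of neutrophil sample as taken from mice with brain tumors. Only the CD45+ libraries were used here, and the labels' protocol text, which describes sorting neutrophils, is the same for all samples. Strain, genotype, sex and age are not given in the sources used here, and there was no group without a tumor. The labels number the 2 CD45+ samples but do not say whether they came from separate mice. The p-values below therefore reflect only how far the differences between classes vary between these 2 samples, a spread that could be technical.

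Type 1 conventional dendritic cells are a branch of the dendritic cell lineage that takes up dead cells and presents their proteins on MHC class I molecules to CD8 T cells, a process called cross-presentation. Their development depends on the transcription factors Irf8 and Batf3. Xcr1 binds the chemokine Xcl1, which NK cells and activated CD8 T cells secrete, and the growth factor Flt3l supports the lineage.

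The cells were compared, within each library, with 3 other classes of cells rich in MHC class II RNA. The first, called Ccl17-gated cells here, had at least 3 UMIs of Ccl17, Mgl2 and Cd209a together and none of Xcr1 or Clec9a, and also at most 2 UMIs of the C1q genes and none of Ccr7. These genes mark type 2 and monocyte-derived dendritic cells, and the class held 219 and 235 cells. Without the conditions on C1q and Ccr7 it held 416 and 474 cells, and 1131 genes were higher and 1500 lower in type 1 cells than in that wider class. The second, Ccr7-gated cells, carried Ccr7 and Fscn1, genes of mature migratory dendritic cells, at most 2 C1q UMIs and no Cd79a, a B cell gene, and held 28 and 25 cells. The third, C1q-rich cells, had at least 10 UMIs of C1qa, C1qb and C1qc and none of Ccr7 and held 562 and 414 cells. Throughout, a pair of values gives library 1 first and library 2 second (n = 2 libraries), and CPM means counts per 1000000 of the UMIs summed over the cells of a class in a library, scaled by TMM (trimmed mean of M values) unless called unscaled.

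The CD45+ libraries held 82077047 and 129422458 UMIs, with medians of 6578 and 11481 UMIs per cell, so library 2 was the deeper one. The 2 CD45+ libraries shared 35 barcodes, and CD45+ library 1 shared 162 with sorted tumor library 2. Only 1 of the 147 cells, in library 2, had a barcode that also occurred in the other CD45+ library, and none had one that occurred in a sorted library. In the 4 sorted neutrophil libraries the same rule was met by 1 cell of 4140 in sorted tumor library 1 and by none in the other 3.

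Type 1 dendritic cells made up 0.781% of the 9352 cells that passed the quality filters in library 1 (exact 95% interval 0.612 to 0.980%) and 0.849% of 8714 in library 2 (0.667 to 1.06%), a mean of 0.815% ± 0.0485 (SD, n = 2). The intervals overlap and cover counting error only. Among the cells with a high MHC class II share they were 4.25% of 1717 and 5.91% of 1252. Ccl17-gated cells were more numerous in both libraries, at 2.34% and 2.70% of cells.

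The Xcr1 gene lies on chromosome 9 from 123852315 to 123862029 on the minus strand, and Clec9a on chromosome 6 from 129408862 to 129424763 on the plus strand, in mm10. Xcr1 RNA stood at 214 and 143 CPM and Clec9a at 311 and 359 CPM in the type 1 cells. Clec9a was seen in 69 of 73 and 72 of 74 cells and Xcr1 in 49 of 73 and 45 of 74. Both genes were seen in 88 of the 147 cells. Of the cells in library 1, 24 carried Clec9a alone and 4 carried Xcr1 alone. The median cell had 9512 and 14038 UMIs, and depths ran from 1259 to 23068 and from 2111 to 27224, so a cell without an Xcr1 UMI cannot be said to lack the RNA. An Xcr1 or Clec9a UMI was also found in 3.74% and 5.07% of the C1q-rich cells, which had deeper medians of 12471 and 18775 UMIs. These shares are not a clean measure of free RNA, since 6 and 8 of those cells carried both genes and the highest sums were 16 and 10 UMIs.

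**Figure D1:**
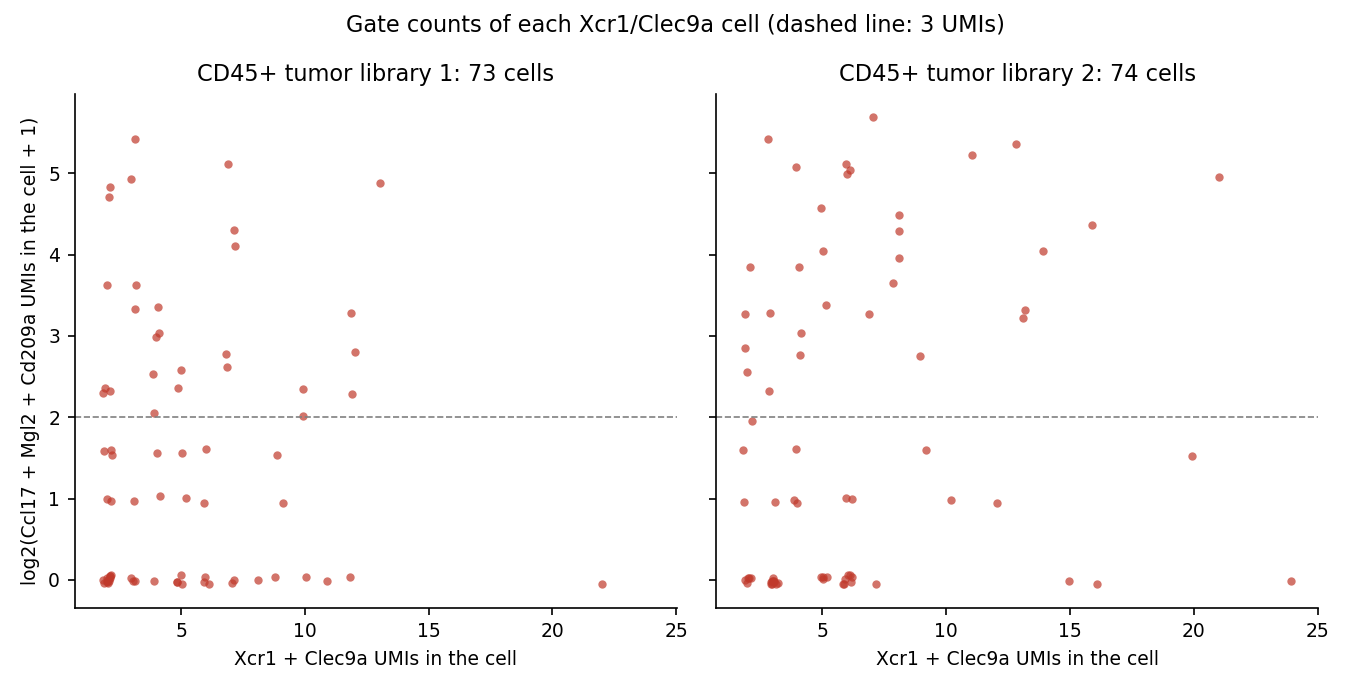
Each point is 1 type 1 dendritic cell of CD45+ library 1 (73 cells) or library 2 (74 cells), with its Xcr1 and Clec9a UMIs on the horizontal axis and the log2 of its Ccl17, Mgl2 and Cd209a UMIs plus 1 on the vertical axis; points are spread slightly to show overlaps. The dashed line marks 3 UMIs, and 28 and 32 cells lie on or above it.

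The lower limit of 2 UMIs kept 23 and 12 cells with exactly 2, and left out 24 and 18 cells with 1. On unscaled CPM, Irf8 stood at 731 and 771 in cells with 2 UMIs and at 719.5 and 560.1 in cells with 1. Wdfy4 stood at 1359 and 1070 in the former and 793.5 and 852.3 in the latter, and Sirpa at 38.2 and 20.8 against 83.8 and 87.7. In library 1 the cells just outside the limit thus carried Irf8 at a level near that of the cells just inside. In library 2 they carried less of it, and in both they had more Sirpa. Itgae, at 172.5 and 194.8 against 343.8 and 576.6, and Naaa, at 187.3 and 238.6 against 300.2 and 569.6, were lower in them. Snx22 was lower too, while Batf3, Cadm1 and Tlr3 changed direction between the libraries. Siglech, a lectin of plasmacytoid dendritic cells and microglia, stood at 113.4 and 9.74 against 5.46 and 6.95. Of cells that met all other conditions, 12 and 6 had an MHC class II share under 0.3% and 1 and 0 a share between 0.3% and 0.5%. The limit on C1q left out 4 and 17 cells with 3 to 9 UMIs and 10 and 11 cells with 10 or more, in which unscaled Irf8 stood at 522 and 465 CPM at median depths of 29980 and 28330 UMIs, and the condition on Ccr7 left out 4 and 4.

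The proximal promoters of Clec9a, Xcr1 and of Gpr141b and Tlr11, a pair of type 1 genes described below, are shown because the type 1 genes were high together in these cells. Each run is the 250 bases before the transcription start in RefSeq on GRCm38.p6, 5′ to 3′ on the gene's strand, with a match to GAAA, any 2 bases and GAAA again, the core letters of an element that IRF family factors bind, in capitals. The regions are chr6:129408612-129408861 (plus strand) for Clec9a, chr9:123862030-123862279 (minus) for Xcr1, chr13:19732952-19733201 (minus) for Gpr141b and chr14:50357664-50357913 (plus) for Tlr11.
Clec9a: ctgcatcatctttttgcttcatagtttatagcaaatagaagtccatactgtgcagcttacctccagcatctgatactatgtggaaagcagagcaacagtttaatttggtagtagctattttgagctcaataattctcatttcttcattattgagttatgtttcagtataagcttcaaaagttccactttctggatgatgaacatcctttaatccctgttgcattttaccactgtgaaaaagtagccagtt
Xcr1: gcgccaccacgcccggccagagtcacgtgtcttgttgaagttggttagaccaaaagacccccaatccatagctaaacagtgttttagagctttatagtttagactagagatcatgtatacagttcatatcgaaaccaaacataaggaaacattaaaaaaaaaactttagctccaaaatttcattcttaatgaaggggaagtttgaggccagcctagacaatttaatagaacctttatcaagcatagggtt
Gpr141b: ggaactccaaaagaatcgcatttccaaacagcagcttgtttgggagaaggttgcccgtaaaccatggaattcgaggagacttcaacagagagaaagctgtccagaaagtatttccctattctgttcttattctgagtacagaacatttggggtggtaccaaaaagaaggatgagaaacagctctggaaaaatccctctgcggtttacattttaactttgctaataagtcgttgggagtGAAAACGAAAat
Tlr11: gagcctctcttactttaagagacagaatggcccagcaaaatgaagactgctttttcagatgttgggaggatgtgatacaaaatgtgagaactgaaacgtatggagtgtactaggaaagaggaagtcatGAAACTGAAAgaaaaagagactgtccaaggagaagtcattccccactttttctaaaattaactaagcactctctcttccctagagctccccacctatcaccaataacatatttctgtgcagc
The match began 12 bases before the start of Gpr141b and 122 bases before that of Tlr11, and the windows of Clec9a and Xcr1 held none. Promoters were found for 16 of the 21 type 1 genes that were higher than in Ccl17-gated cells, and 3 of the 16 (18.75%) held the motif on either strand, the third being Ifi205. The motif occurred in 294 of 7996 tested genes with a promoter (3.68%) and in 2.98% of all 32851 promoters. The composite element GGAA, any 2 bases, GAAA, which PU.1 and IRF factors can share, was in none of the 16 and in 2.61% of the tested genes, and the AP-1 motif TGANTCA, to which Batf3 with its partners can bind, in none of the 16 and in 5.48%. Both strands were searched, and the first 2 motifs can overlap. A match is a description of the letters and not a bound site.

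Against Ccl17-gated cells, the genes of the type 1 program stood high together. By edgeR's quasi-likelihood test on the summed UMI counts, with the library as a block, 10100 genes were tested. Of these, 852 (8.44%) were higher and 1047 (10.4%) were lower at an adjusted p under 0.05. These shares are the background for every list counted against Ccl17-gated cells below. Of the 26 genes of the type 1 list, 23 could be tested, and 21 were higher and none lower, with a median log2 difference of 3.59 beside -0.042 over all genes. Batf3, Irf8, Cadm1, Itgae, Wdfy4, Tlr3, Naaa and Snx22, markers of type 1 cells that the rule did not use, were all among the 21, and Cd24a and Xlr were tested and not called. Without the block the counts over all genes were 447 higher and 573 lower, and with each cell thinned to 2000 UMIs 328 and 509. With a library of a class left out, 412 to 617 were higher and 630 to 869 lower, and each of these had fewer calls than the full set.

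Irf8, the transcription factor that sets up the lineage (chromosome 8, 120736358 to 120756694), stood at 934 and 857 CPM in type 1 cells and 70.1 and 78.0 CPM in Ccl17-gated cells, a log2 difference of 3.59 ± 0.15 (SE), adjusted p = 3.7e-10. Its partner Batf3 (chromosome 1, 191097847 to 191108945) stood at 164 and 154 against 35.5 and 46.7 CPM, a difference of 1.94 ± 0.22 (SE), adjusted p = 7.8e-06. For both genes the 2 libraries of type 1 cells lay above the 2 of the compared class. Here and below such a separation only describes 2 libraries per class. The share of all tested genes that separate in this way is not given here. Cadm1, an adhesion molecule used to identify type 1 cells across species (chromosome 9, 47530173 to 47857637), stood at 164 and 159 against 0.876 and 2.11 CPM, a difference of 6.67 ± 0.42 (SE), adjusted p = 2.3e-08. Of the 147 cells, 44 had a UMI of Cadm1 and the 10 richest cells held 61.2% of its UMIs. Irf8 was found in 132 of the 147, Batf3 in 108 and Wdfy4 in 145.

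Wdfy4, which is required for cross-presentation of cell-associated antigen, stood at 1888 and 1599 CPM against 516 and 399.5 CPM (log2 difference 1.93 ± 0.15). Tlr3, the endosomal sensor of double-stranded RNA (chromosome 8, 45395665 to 45411080), stood at 159 and 157 against 8.32 and 6.32 CPM (4.44 ± 0.24). Naaa, a lysosomal amidase, stood at 379 and 646 against 56.1 and 96.6 CPM, and Itgae, the integrin CD103, at 578 and 676 against 169.5 and 209 CPM. In each of these genes the type 1 cells were the higher class in 2 of 2 libraries. Btla, an inhibitory receptor, stood at 482 and 508 against 191 and 141 CPM. Tlr11 and Tlr12, sensors of protozoan profilin, were also higher: Tlr12 had a difference of 4.42 ± 0.58, and Tlr11 had 13 UMIs against 3, 13.1 times the level (95% counting interval 3.6 to 71.6). Gpr141b, an orphan receptor, had 52 UMIs against 2, a ratio of 78.5 (20.7 to 666). Cd8a, which marks type 1 cells of lymphoid organs, had 1 UMI in all 147 cells and Cd207, a lectin of Langerhans cells and some type 1 cells, had none.

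**Figure D2:**
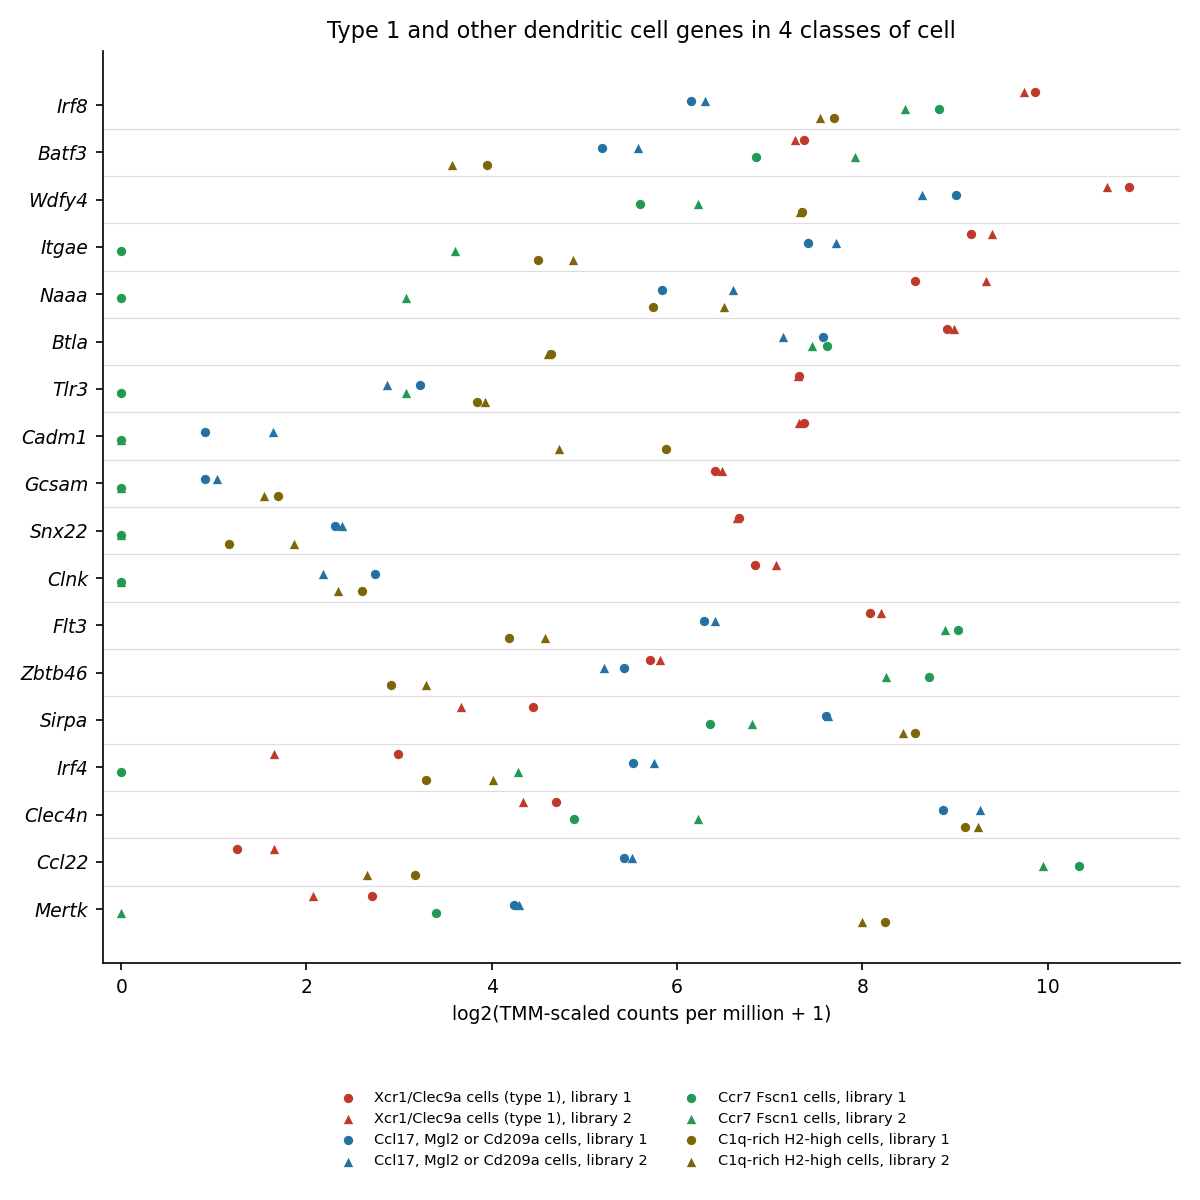
Levels of 18 genes as log2 of TMM-scaled CPM plus 1 in 4 classes of cells, with circles for CD45+ library 1 and triangles for library 2. In the upper rows, from Irf8 to Clnk, the type 1 cells lie to the right of the Ccl17-gated cells in both libraries, and in the rows of Sirpa, Irf4, Clec4n and Ccl22 to their left.

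Among called genes at 50 CPM or more in both libraries of type 1 cells, on and off the list, the largest excess over Ccl17-gated cells was in Ank1, an ankyrin that links membrane proteins to the cytoskeleton (chromosome 8, 22974844 to 23150497). It stood at 217 and 162 against 1.31 and 0.703 CPM, a log2 difference of 7.52 ± 0.36 (SE), adjusted p = 6.3e-10. Cadm1, Gcsam and P3h2 followed, then Plce1, Clec1b, Lrrc1, Laptm4b, Clnk and Snx22. P3h2, a collagen prolyl hydroxylase, stood at 151 and 188 against 0 and 4.22 CPM and Clnk, an adaptor of immune receptor signalling, at 113 and 133 against 5.69 and 3.51 CPM. The 10 genes had differences from 4.61 to 7.52.

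Of genes shared among dendritic cells, 11 of 12 were tested, 5 higher and 2 lower, with a median difference of 0.70. Flt3, the receptor of the growth factor of the lineage, stood at 269.5 and 294 against 77.1 and 84.0 CPM (1.81 ± 0.14). Zbtb46, a transcription factor of conventional dendritic cells, did not pass the test at 51.1 and 55.5 against 42.0 and 36.2 CPM (adjusted p = 0.21). Dpp4, Ckb, Cst3 and Cd83 were the other higher genes, and Itgax, which encodes CD11c, was lower at 126 and 104 against 285 and 277 CPM (-1.30 ± 0.14).

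Genes of type 2 and monocyte-derived dendritic cells stood on the other side. Of 18, 14 were tested, none was higher and 11 were lower, with a median of -2.17 (-2.12 with genes at 0 in type 1 cells at their bound). Sirpa, the receptor for CD47 that marks type 2 cells, stood at 20.7 and 11.7 against 194 and 197 CPM, a difference of -3.63 ± 0.24 (SE), adjusted p = 2.1e-08. Irf4, the transcription factor of type 2 cells, stood at 6.91 and 2.13 against 45.1 and 52.7 CPM (-3.55 ± 0.49). Clec4n, the lectin Dectin-2, stood at 24.9 and 19.2 against 469 and 616 CPM (-4.65 ± 0.23), and Tnip3, an inhibitor of NF-kappaB signalling, at 6.91 and 12.8 against 283 and 503 CPM. The groups did not overlap in any of these 4 genes, which describes 2 libraries per class and is not a further test. Klf4, Fcgr1 and Ear2 were not called.

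Among called genes at 50 CPM or more in both libraries of Ccl17-gated cells, the largest deficit was in Il2ra, the high-affinity subunit of the IL-2 receptor (chromosome 2, 11642807 to 11693193). It had 0 and 3 UMIs in type 1 cells and stood at 103 and 97.3 CPM in Ccl17-gated cells, 56.5 times the type 1 level over both libraries (counting interval 19.2 to 275). Ank, a pyrophosphate transporter that is a different gene from Ank1, stood at 1.38 and 4.27 against 115 and 127 CPM. Ccr1, a receptor for inflammatory chemokines, stood at 18.0 and 11.7 against 199 and 328 CPM (-4.21 ± 0.25). Macrod2, Mmp12, Adgrg6, Pxdc1 and Ltb were the other leading lower genes.

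**Figure D3:**
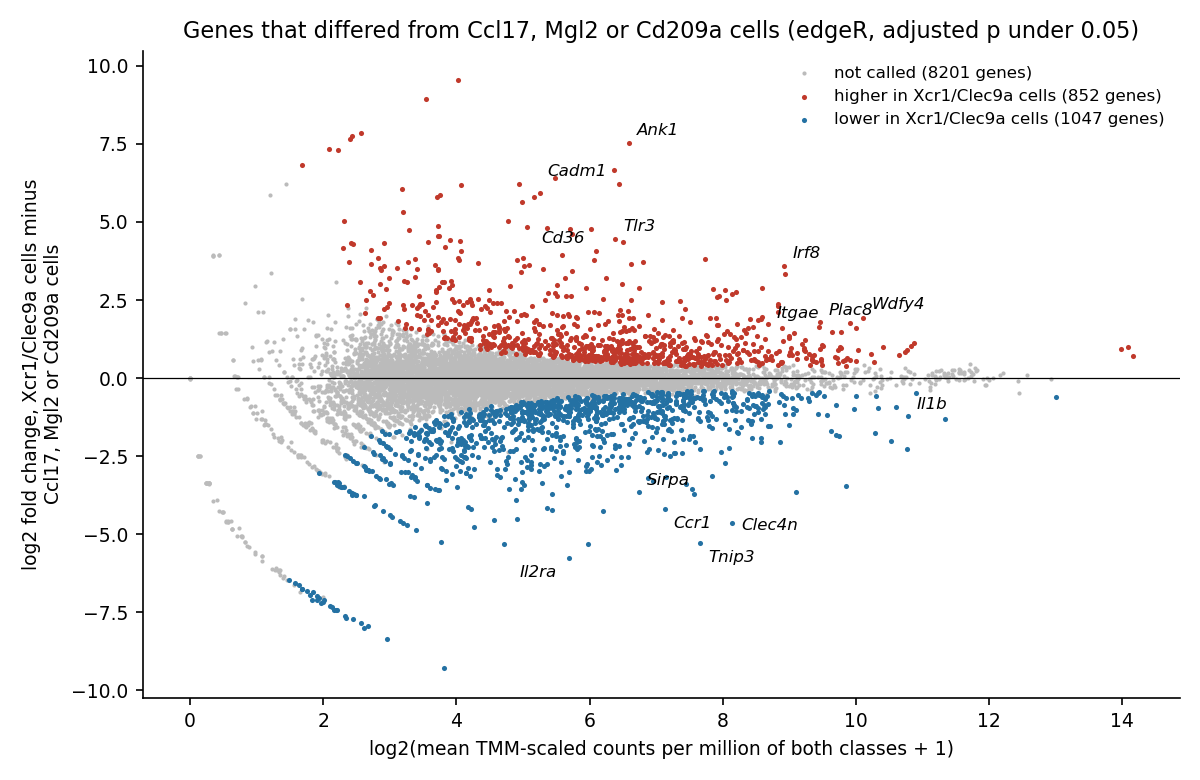
Each point is 1 of the 10100 tested genes, with the log2 of its mean TMM-scaled CPM plus 1 over both classes on the horizontal axis and the log2 fold change of type 1 cells minus Ccl17-gated cells on the vertical axis. The 852 higher genes are in red and the 1047 lower genes in blue; Ank1, Cadm1, Tlr3 and Irf8 lie among the former and Il2ra, Tnip3, Clec4n and Sirpa among the latter.

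Among 22 transcription factors, 7 were higher and 7 lower, beside 8.44% and 10.4% of all tested genes. The higher ones were Irf8, Batf3, Bcl6, Ahr, Notch2, Etv6 and Id2. Without the block 4 of the 22 were higher and 2 lower. Ahr, the aryl hydrocarbon receptor, stood at 768 and 681 against 315 and 281 CPM (1.28 ± 0.12), and Bcl6, a repressor that type 1 cells need, at 283 and 253 against 113 and 106 CPM (1.29 ± 0.13). Id2, an inhibitor of E proteins, differed by less, at 705 and 737 against 487 and 594 CPM (0.42 ± 0.13 (SE), adjusted p = 0.037). Its call was lost with the type 1 or the Ccl17-gated cells of either library left out (adjusted p from 0.14 to 0.47) and without the block (0.22). Zeb2, which represses the type 1 fate, stood at 96.8 and 45.9 against 441 and 460.3 CPM (-2.72 ± 0.23). Irf4, Maf, Cebpb, Cebpa and Tcf4 were also among the lower factors, and Spi1 and Nfil3 were not called.

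Of 17 genes of MHC class I presentation, 6 were higher than in Ccl17-gated cells and none lower, with a median of 0.38. They were the peptide transporter subunits Tap1 and Tap2, the immunoproteasome subunits Psmb8 and Psmb9 and the proteasome activator subunits Psme1 and Psme2. Psmb9 stood at 198 and 418 against 71.8 and 174 CPM, a difference of 1.34 ± 0.16 (SE), adjusted p = 1.2e-05. Without the block only 2 of the 17 genes were higher, and Psmb9 did not pass (adjusted p = 0.12). The library 2 value of the compared class lay near the library 1 value of the type 1 cells, and the type 1 cells were higher within each library. Tap1 stood at 206 and 166 against 99.0 and 79.1 CPM (1.07 ± 0.14) and Psme1 at 784 and 800.2 against 394 and 353 CPM (1.09 ± 0.14). The class I heavy chain H2-K1 did not pass the test, at 763 and 886 against 694 and 849 CPM (0.10 ± 0.14, adjusted p = 0.73), nor did H2-D1 or B2m. Over the alternatives the number of higher genes in this list ran from 2 to 8.

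Of 14 tested genes of cross-presentation and the phagosome, 3 were higher, namely Wdfy4, Rab43 and Rab11a, and 2 lower, namely Cybb and Rac2. In this comparison 8.44% of all tested genes were higher and 10.4% lower. Rab43, a GTPase used in cross-presentation, stood at 698 and 723 against 279 and 196 CPM (1.61 ± 0.14). Cybb, the catalytic subunit of the phagosomal NADPH oxidase, stood at 59.4 and 32.0 against 205 and 289.5 CPM (-2.49 ± 0.31), and 1 cell held 49.3% of its UMIs in type 1 cells. Sec22b and Lnpep, also tied to cross-presentation, were not called. Of 13 accessory genes of MHC class II presentation, 2 were higher (H2-Ob and March1) and 5 lower. The lower ones were the lysosomal proteases Ctsd, Ctsl, Ctsz and Ctss and the peptide-loading subunit H2-DMb2, which stood at 117 and 132 against 300.5 and 326 CPM (-1.33 ± 0.15). Ciita, the master regulator of MHC class II, was not called, at 267 and 228 against 265 and 219 CPM, in cells that had been selected on a minimum of MHC class II RNA in both classes.

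Receptors for dead cells and microbial products fell into separate groups. Of 24 tested, 7 were higher and 10 lower, beside 8.44% and 10.4% of all tested genes. Besides Tlr3, Tlr11, Tlr12 and Ly75, the higher ones were Cd36, Timd4 and Havcr2, which bind phosphatidylserine or other ligands on dying cells. Cd36 stood at 129 and 126 against 3.94 and 10.5 CPM (4.08 ± 0.30 (SE), adjusted p = 7.9e-08). Timd4 stood at 323 and 204 against 85.4 and 54.5 CPM (1.91 ± 0.15), and Havcr2, which encodes TIM-3, at 691 and 765 against 331 and 252 CPM (1.34 ± 0.14). In all 3 genes the type 1 cells were higher in 2 of 2 libraries. The TAM receptors Axl and Mertk, which macrophages use for the uptake of dying cells, were lower (-1.02 ± 0.23 and -2.11 ± 0.48). The Axl call was lost without library 1 of the type 1 cells (adjusted p = 0.078) and the Mertk call without library 2 (0.066). Tlr2, Tlr4 and Tlr1, surface sensors of bacterial products, were lower too, with Tlr2 at 23.5 and 9.60 against 69.2 and 88.2 CPM (-2.33 ± 0.31).

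Costimulatory and checkpoint genes were split, with 4 of 17 higher and 5 lower, beside 8.44% and 10.4% of all tested genes. The costimulators Cd80 and Cd86 were lower, with Cd80 at 281 and 252 against 769.6 and 739.6 CPM (-1.51 ± 0.14 (SE), adjusted p = 9.1e-07) and Cd86 at 1121 and 1026 against 2212 and 1847 CPM (-0.92 ± 0.17). The ligands of PD-1 were higher: Cd274, which encodes PD-L1, stood at 265 and 347 against 166 and 203 CPM (0.74 ± 0.20, adjusted p = 0.012), and Pdcd1lg2, which encodes PD-L2, at 358 and 359.6 against 201 and 159 CPM (1.00 ± 0.14). The Cd274 call was lost without library 2 of the type 1 cells (difference 0.39) and without library 1 of the Ccl17-gated cells (0.50). It was also lost without the block (adjusted p = 0.12) and with DESeq2 (0.061). Without the type 1 cells that had at least 3 UMIs of Ccl17, Mgl2 and Cd209a, the Cd274 difference was 0.48 and did not pass (adjusted p = 0.14). Cd40, which receives help from T cells, was lower, at 11.1 and 8.54 against 20.6 and 28.5 CPM. Ido1, an enzyme that breaks down tryptophan, had 2 UMIs in the type 1 cells, both in library 2.

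Of 27 tested cytokine and chemokine genes, 4 were higher and 14 lower, with a median of -1.52. Il12b, the shared subunit of IL-12 and IL-23, stood at 5.53 and 17.1 against 1.31 and 0.351 CPM, 3.83 ± 1.17 (SE), adjusted p = 0.03, on 20 UMIs in 9 cells. The partner subunit Il12a had none in type 1 cells. Cxcl9, a ligand of Cxcr3 that draws T cells, stood at 51.1 and 14.9 against 21.5 and 3.51 CPM (1.46 ± 0.49 (SE), adjusted p = 0.047), with the library 2 value of type 1 cells below the library 1 value of the compared class. All the Cxcl9 UMIs were in 14 cells. Against the wider class without the C1q and Ccr7 conditions both differences changed sign, to -1.08 for Il12b and -0.75 for Cxcl9, and neither passed (adjusted p = 0.35 and 0.15). Without library 2 of the type 1 cells the adjusted p was 0.13 for Il12b and 0.11 for Cxcl9, and without library 2 of the Ccl17-gated cells 0.66 and 0.051. Without library 1 of the Ccl17-gated cells it was 0.44 for Cxcl9. Both calls were also lost without the block (0.18 and 0.71) and with DESeq2 (0.057 and 0.53). Il18 stood at 58.1 and 22.4 against 10.1 and 14.4 CPM (1.61 ± 0.37) and Ccl4, an inflammatory chemokine, at 431 and 611 against 155 and 255 CPM (1.36 ± 0.17 (SE), adjusted p = 1.5e-05), with a UMI in 102 of the 147 cells. The Il18 call was lost without library 1 of the type 1 cells (difference 0.84) or of the Ccl17-gated cells (1.08). Without the block neither Il18 (adjusted p = 0.058) nor Ccl4 (0.1) passed. In that setting 0 of the 27 genes were higher and 7 were lower. The lower genes included Il1b, at 1037 and 1063 against 2026 and 2912 CPM (-1.20 ± 0.18), the neutrophil attractant Cxcl2 (-1.74 ± 0.24) and Tnf (-3.53 ± 0.42). Cxcl10 was called lower (-2.18 ± 0.43), but its levels of 48.4 and 2.13 CPM differed between the libraries, 1 cell held 67.6% of its UMIs, and the call was lost without the block (adjusted p = 0.15).

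**Figure D4:**
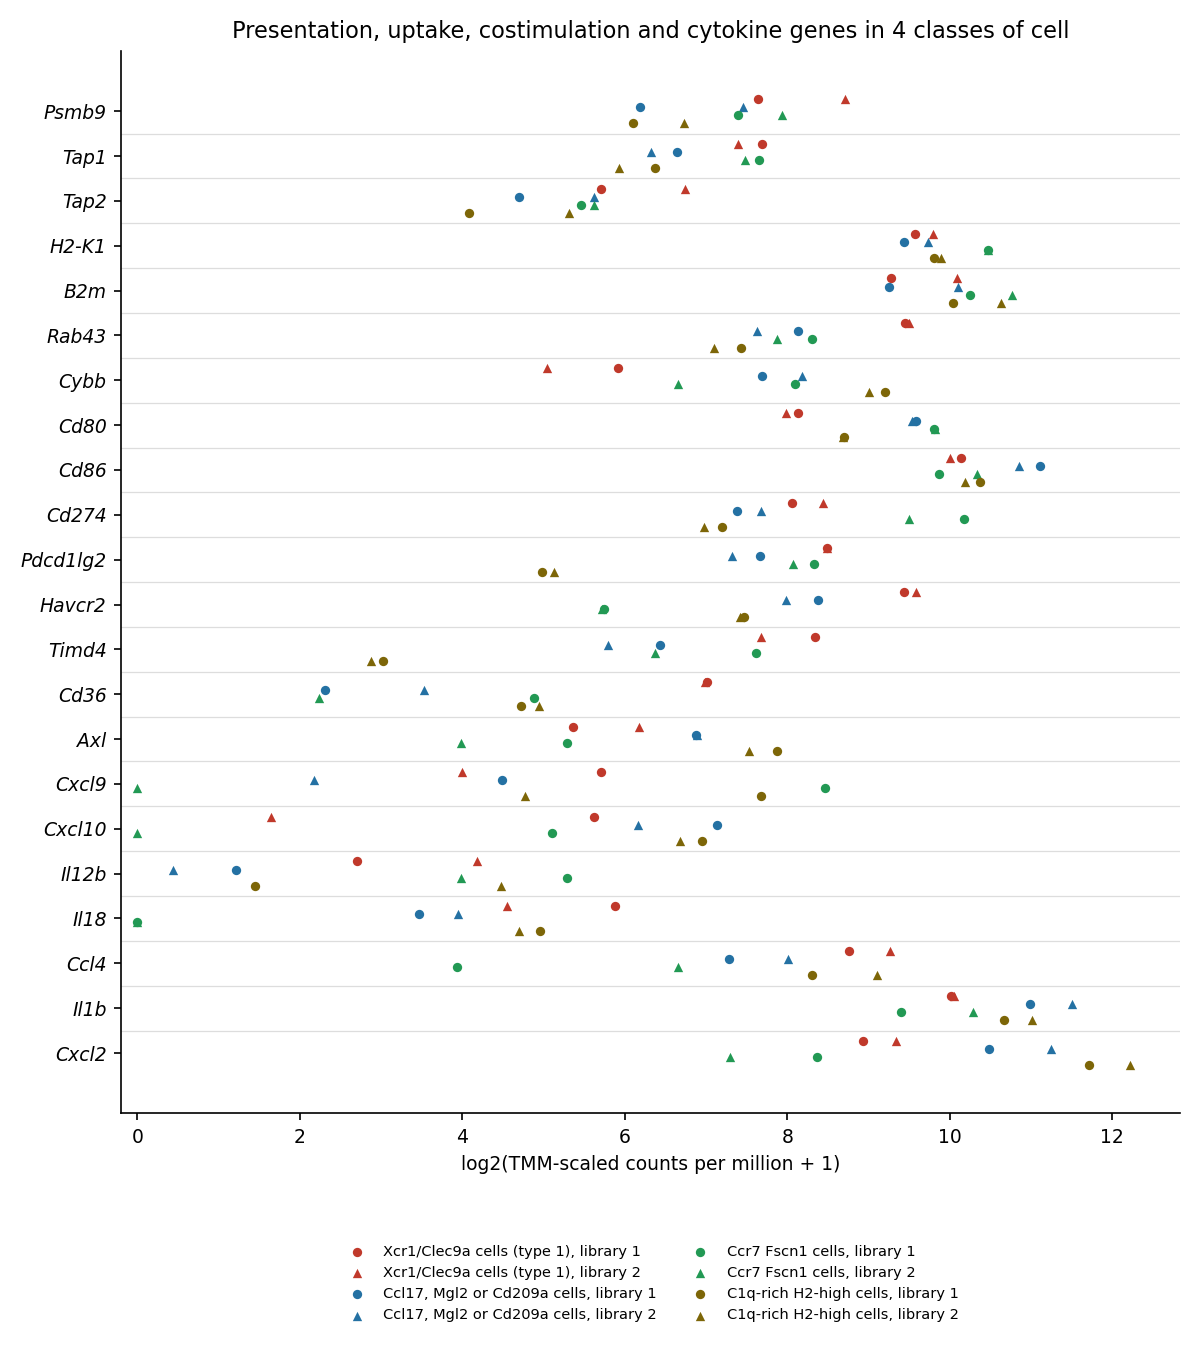
Levels of 22 genes of antigen presentation, uptake, costimulation and cytokines as log2 of TMM-scaled CPM plus 1, with circles for CD45+ library 1 and triangles for library 2. Type 1 cells lie to the right of Ccl17-gated cells in both libraries for Psmb9, Rab43, Pdcd1lg2, Havcr2, Timd4 and Cd36 and to the left for Cd80, Cd86, Il1b and Cxcl2.

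Of 29 tested cytokine and chemokine receptors, 4 were higher (Ptger2, Flt3, Ifnar1 and Kit) and 12 lower. Ptger2, a receptor for prostaglandin E2, stood at 19.4 and 22.4 against 2.63 and 3.16 CPM (2.83 ± 0.47). Csf1r and Ccr2, receptors of monocyte-derived cells, were lower, at 29.0 and 10.7 against 145 and 147 CPM (-2.96 ± 0.26) and 33.2 and 25.6 against 132 and 137 CPM (-2.23 ± 0.23). Of 25 tested interferon-stimulated genes, 4 were higher (Irf7, Stat2 and Isg15 among them) and 4 lower (Oas2, Rtp4, Ifit1 and Rsad2). Their median was 0.038 beside -0.042 over all genes, of which 8.44% were higher and 10.4% lower. Irf7, a regulator of type I interferon genes, stood at 106 and 156 against 35.5 and 57.3 CPM (1.5 ± 0.18).

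Hypoxia and glycolysis genes were lower in type 1 cells. Of 24 tested, 19 were lower than in Ccl17-gated cells and 2 higher, with a median of -1.26, and over the alternatives 15 to 21 were lower and the median ran from -1.54 to -1.06. Vegfa, the vascular growth factor, stood at 26.3 and 54.4 against 127 and 186 CPM (-1.92 ± 0.22 (SE), adjusted p = 6.9e-06). Hilpda, a hypoxia-induced lipid droplet protein, stood at 35.9 and 63.0 against 177 and 342 CPM (-2.38 ± 0.19), and the oxygen sensor Egln3 at 13.8 and 3.20 against 62.2 and 42.5 CPM (-2.70 ± 0.34). In these genes each type 1 library lay below both libraries of the compared class. The glucose transporter Slc2a1 (-1.43 ± 0.20) and the enzymes Hk2 (-0.93 ± 0.14), Pgk1 (-0.83 ± 0.14), Eno1 (-1.64 ± 0.16) and Gapdh (-0.99 ± 0.15) were lower by smaller amounts. Ldha, the lactate dehydrogenase, was not called, at 348 and 525 against 383 and 504 CPM (-0.032 ± 0.14, adjusted p = 0.92).

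The 2 higher genes of the list were Pfkp, the platelet form of phosphofructokinase, and Ndrg1. Pfkp stood at 1092 and 927 against 678 and 587 CPM (0.67 ± 0.13, adjusted p = 0.0013, and 0.095 without library 2 of the Ccl17-gated cells) and Ndrg1 at 254 and 202 against 122 and 86.1 CPM (1.14 ± 0.15). Hif1a, the oxygen-regulated transcription factor itself, stood at 301 and 283 against 512 and 532 CPM (-0.84 ± 0.14). Against C1q-rich cells, 22 of the 24 were lower and 2 higher, with a median of -1.67, and Arg1, an enzyme of arginine breakdown that is also a marker of tumor macrophages, stood at 53.9 and 105 against 1447 and 1620.2 CPM (-4.25 ± 0.21). Both comparisons share the type 1 cells.

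**Figure D5:**
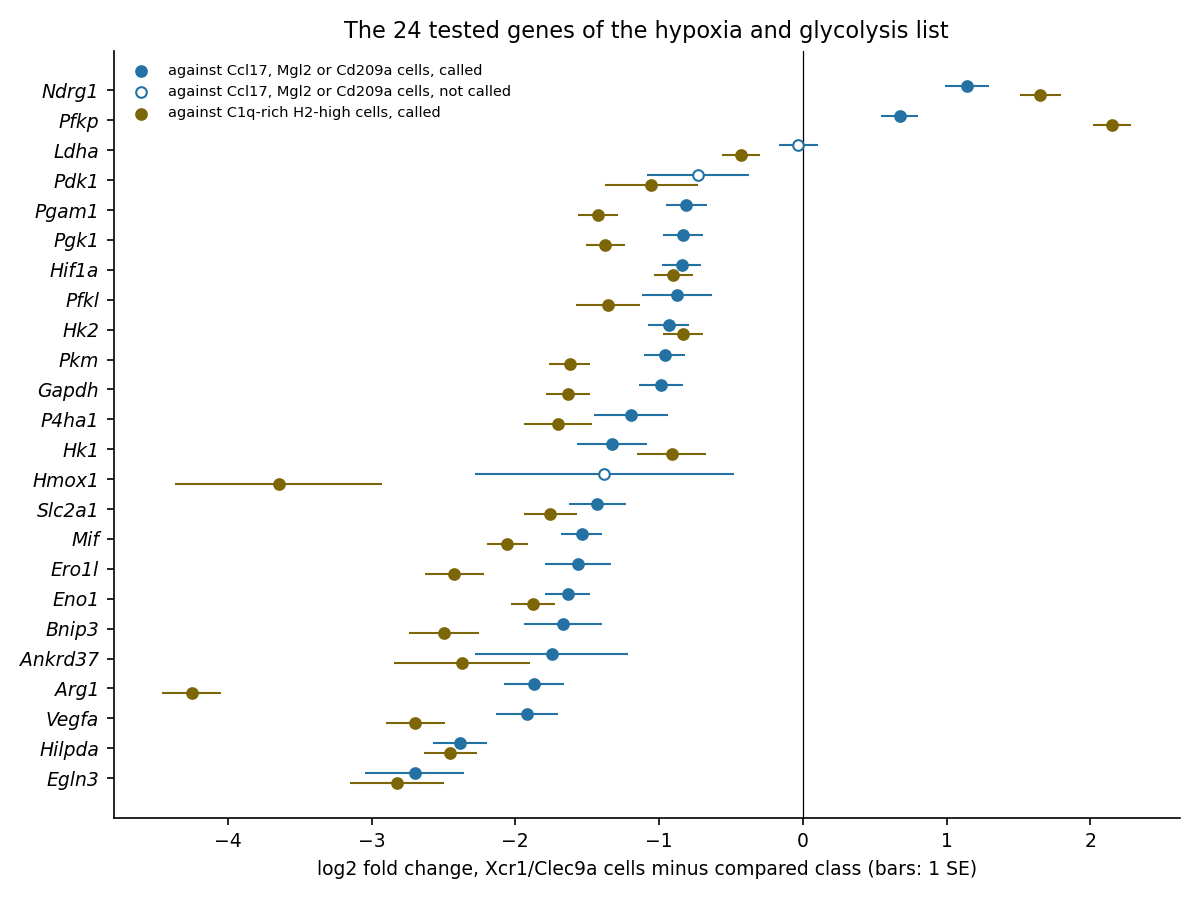
Log2 fold changes of the 24 tested genes of the hypoxia and glycolysis list, type 1 cells minus Ccl17-gated cells and type 1 cells minus C1q-rich cells, with bars of 1 SE; filled points passed the test and open points did not. All but Ndrg1 and Pfkp lie below 0 in both comparisons.

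Of 14 tested genes of lipid handling, 7 were lower and none higher, beside 10.4% and 8.44% of all tested genes. The lower ones included the cholesterol exporter Abca1 (-2.10 ± 0.22) and the fatty acid binding protein Fabp5 (-2.27 ± 0.29). Of 24 proliferation genes, 1 was lower (Mcm3, adjusted p = 0.0498, and 0.57 without library 2 of the type 1 cells) and none higher. The median was -0.094, and without the Ccl17-carrying type 1 cells 4 of 23 were lower with a median of -1.18. After each cell was thinned to 2000 UMIs, 9.92% of type 1 cells in library 1 (95% interval 4 to 19%) and 2.09% in library 2 (0.329 to 9.42%) carried a UMI of Mki67 or Top2a, genes of dividing cells. Without thinning the shares were 24.7% and 8.11%, and in Ccl17-gated cells after thinning 7.38% and 3.81%. Without the Ccl17-carrying type 1 cells the mean thinned share was 3.49%, beside 6% with them. The intervals of the 2 libraries overlap, and 1 cell held 32.1% of the Mki67 UMIs. Of 14 survival genes, 2 were higher and 6 lower, with the anti-apoptotic Bcl2 at 37.3 and 53.4 against 141 and 121 CPM (-1.48 ± 0.21).

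Markers of other cell types were counted in the same sums, against Ccl17-gated cells. Of all tested genes in this comparison, 8.44% were higher and 10.4% lower. Of 10 macrophage markers, 1 was higher (Aif1) and 6 lower, and their unscaled summed level was 978 and 822 CPM against 1052 and 1192 CPM. Sall1, a microglial factor, and Ncr1, a receptor of NK cells, were at 0 in type 1 cells. Of 7 microglia markers, 2 were higher (Siglech and P2ry12) and 1 lower, with P2ry12 at 11.1 and 32.0 against 6.57 and 9.49 CPM (1.45 ± 0.36). The P2ry12 call was lost without the block (adjusted p = 0.15), without library 2 of the type 1 cells (0.55) or of the Ccl17-gated cells (0.2), and against the wider class, where the difference was 0.037 (0.95). Of 7 monocyte markers, 1 was higher and 3 lower, and Ly6c2 did not pass the test at 31.8 and 18.1 CPM. The unscaled summed level of the monocyte list was 1108 and 1670 CPM against 964 and 978 CPM. Plac8, given below, made up most of this sum in type 1 cells, while Ccr2, F13a1 and Ms4a6c were the 3 lower genes. The unscaled summed level of the neutrophil list was 1453 and 1499 CPM against 4107 and 3480 CPM. In type 1 cells the neutrophil sum was nearly all Il1r2, a decoy receptor for IL-1, with 2492 UMIs in 134 of the 147 cells, while no other marker of the list had more than 43. No T cell or B cell marker was called, and the NK cell list had 1 lower gene, Klrd1. The summed T cell markers stood at 9.49 and 25.9 against 42.9 and 26.6 unscaled CPM. The part of these cells in the results above was not tested beyond the removal given below. Plac8, a gene of monocytes and plasmacytoid dendritic cells, was higher at 811 and 1396 against 273 and 344 CPM (1.81 ± 0.22), and the neutrophil gene G0s2 was higher on low levels (6.91 and 18.1 against 1.31 and 1.41 CPM), with 1 cell holding 72.7% of its 22 UMIs. No neutrophil marker was higher without the Ccl17-carrying type 1 cells (5 tested), after thinning (3 tested) or after the removal given below (2 tested), beside 6 tested in the full set. That removal used Retnlg and Csf3r, which are markers of the list. With fewer markers tested, these counts cannot decide whether the G0s2 difference remained.

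Of 6 tested markers of plasmacytoid dendritic cells, 5 were higher than in Ccl17-gated cells, and their unscaled summed level was 142 and 162 CPM against 10.8 and 7.55 CPM. Siglech, a lectin of plasmacytoid cells and microglia, stood at 27.6 and 32.0 against 1.75 and 1.76 CPM (4.07 ± 0.45), and the homing receptor Ccr9 at 55.3 and 59.8 against 7.01 and 1.41 CPM (3.86 ± 0.48). These UMIs sat in few cells. All Klk1 UMIs came from 2 cells, 1 in each library, and Ly6d from 3, while Siglech was seen in 17 and Ccr9 in 23 of the 147. With all cells removed that had a UMI of Siglech or of 9 T, B, NK or neutrophil genes, 2 of the markers could be tested and 1 was higher. With the same removal, 672 genes were higher and 978 lower over all genes, 20 of 22 tested genes of the type 1 list were higher, and 18 of 24 of the hypoxia and glycolysis list were lower.

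Type 1 cells were next set against Ccr7-gated cells. Of the 10100 genes, 1338 (13.2%) were higher and 982 (9.72%) lower, and the median over all genes was 0.20 on the log2 scale, so differences below that size are relative to a shifted centre. Without TMM scaling the split was 978 higher and 1181 lower. Of the type 1 list, 19 of 23 were higher and 1, Ly75, was lower. The median was 5.23, or 3.49 with the 8 genes that had no UMI in Ccr7-gated cells set at their bound, which is the ratio to a floor of 3 counts over the class. Cadm1 was at least 25.8-fold higher, Clnk at least 19.9-fold and Snx22 at least 16-fold. Ifitm6, an interferon-induced membrane protein, was at least 65.8-fold higher.

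Batf3 did not pass this test. It stood at 164 and 154 CPM in type 1 cells and 114 and 241 CPM in Ccr7-gated cells, so the groups overlapped (-0.20 ± 0.27, adjusted p = 0.64); without library 2 of the Ccr7-gated cells the difference was 0.49 (adjusted p = 0.42). Irf8 was higher, at 934 and 857 against 453 and 352 CPM (1.17 ± 0.16), and Flt3 was lower, at 269.5 and 294 against 524 and 474 CPM (-0.82 ± 0.16). Wdfy4 was higher at 1888 and 1599 against 47.7 and 74.1 CPM (4.79 ± 0.24 (SE), adjusted p = 6.8e-10).

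Of 17 tested genes of mature dendritic cells, 16 were lower and none higher, with a median of -4.25 (-4.14 with the gene at 0 in type 1 cells at its bound). Ccl22, which draws regulatory T cells, had 3 UMIs in type 1 cells against 537, 709 times lower (counting interval 241 to 3448). Dscam, an adhesion molecule, had none in type 1 cells and was at least 129-fold lower, and Tcf7, a transcription factor, was at least 64.6-fold lower. The summed T cell markers stood at 9.49 and 25.9 unscaled CPM in type 1 cells and 21.6 and 114 in Ccr7-gated cells. Trbc2, a T cell marker, was called lower on 3 UMIs against 14. The part of T cell RNA in the Tcf7 difference was not tested. Il12b was the list's gene that was not called, at 5.53 and 17.1 against 38.1 and 14.8 CPM. Cd80 was lower at 281 and 252 against 891 and 900.4 CPM (-1.76 ± 0.15) and Cd274 at 265 and 347 against 1153 and 723 CPM (-1.58 ± 0.21), so for Cd274 the type 1 cells lay between the Ccl17-gated and the Ccr7-gated cells. Cd86 did not pass the test (-0.062 ± 0.19), and its sign depended on the setting. Of the 24 tested hypoxia and glycolysis genes, 5 were higher and 3 lower against Ccr7-gated cells, with a median of 0.33 (0.10 with bounds). Of the 17 genes of MHC class I presentation, 2 were higher and 5 lower, with a median of -0.20 beside 0.20 over all genes. Psme2, H2-K1, H2-D1 and B2m were among the lower ones, and Tap1, Tap2, Psmb8, Psmb9 and Psme1 were not called. Of all tested genes, 13.2% were higher and 9.72% lower. The Ccr7-gated class rests on 53 cells with 185239 and 254767 UMIs.

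Against C1q-rich cells, 1590 genes (15.7%) were higher and 1962 (19.4%) lower. All tested genes of the type 1 list but Xlr were higher, with a median of 3.64. Irf8 stood at 934 and 857 against 206 and 186 CPM (2.19 ± 0.13) and Batf3 at 164 and 154 against 14.4 and 10.9 CPM (3.64 ± 0.23). Cadm1 stood at 58.1 and 25.6 CPM in C1q-rich cells, a difference of 2.04 ± 0.23. Snx22, a sorting nexin (5.66 ± 0.31), Ank1 (5.41 ± 0.23), Ccser1 (5.37 ± 0.16) and Timd4 (5.26 ± 0.18) were among the leading higher genes.

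Genes of macrophages were among the leading lower ones. Ms4a7 had 1 UMI in type 1 cells against 2062, 212 times lower (counting interval 38.1 to 8395). Apoe, the main lipid carrier of the brain, stood at 370.4 and 293 against 15377 and 14110 CPM (-5.48 ± 0.31 (SE), adjusted p = 7.0e-10), and Trem2, a lipid receptor of microglia and macrophages, at 4.15 and 7.47 against 322 and 348 CPM (-5.80 ± 0.26). Mertk stood at 5.53 and 3.20 against 302 and 254 CPM. Of 27 cytokine and chemokine genes 20 were lower and none higher than in C1q-rich cells, with a median of -2.34.

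The type 1 cells were not uniform. Ccl17, Mgl2 and Cd209a, which define the compared class, reached 3 UMIs in 28 and 32 of the type 1 cells and were at 0 in 31 and 30. The following values are unscaled CPM, were chosen after the values were seen and were not tested. Irf8 stood at 835 and 714 in the cells with at least 3 of those UMIs and at 979.8 and 880.1 in the others, and Sirpa at 18.8 and 4.08 against 21.6 and 17.5. Ccl17 itself stood at 910 and 1018 in them and 1760 and 2000 in Ccl17-gated cells, and Mgl2 at 144 and 167 against 730.2 and 999. The Ccl17-carrying type 1 cells were deeper, with medians of 10290 and 15220 UMIs against 9286 and 12430, and the part of depth in these values was not tested. Plac8 was lower in them in both libraries, at 572 and 850.5 against 968 and 1731. Without these cells 0.482% of cells were type 1.

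Values were also set side by side for cells with an Xcr1 UMI (49 and 45) and cells seen by Clec9a alone (24 and 29), chosen after the values were seen and not tested. Cadm1 stood at 217 and 188 unscaled CPM in cells with Xcr1 and 27.7 and 64.9 in cells without, and Vegfa at 13.4 and 27.9 against 55.4 and 99.0. Hilpda stood at 15.4 and 30.8 against 83.0 and 118, so this hypoxia gene was lower where Xcr1 was seen, in both libraries. Ccr9 stood at 23.1 and 13.2 against 129 and 145. In each library 1 cell without an Xcr1 UMI held much of the Ccr9 RNA, 20 of 40 UMIs and 43 of 56. The cells with Xcr1 were deeper, with medians of 9520 and 14530 UMIs against 8642 and 11270, and the part of depth in these values was not tested.

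The ligands of the type 1 cells' receptors were sought in other cells of the same libraries, in unscaled CPM. Xcl1, the ligand of Xcr1, stood at 130.4 and 680.1 in cells with an Ncr1 UMI and none of Cd3d, Cd3e or Cd3g (60 and 40 cells) and at 19.2 and 13 in cells with at least 2 UMIs of the Cd3 genes and none of Ncr1 (444 and 239 cells), both with a low MHC class II share. No Xcl1 UMI was found in the type 1 cells, where a floor of 3 counts corresponds to 4.07 and 2.99. Flt3l, the ligand of Flt3, stood at 36.8 and 34.0 in the Ncr1 cells and 15.2 and 15.9 in the Cd3 cells. Ifng stood at 87.9 and 17.9 in the Cd3 cells, a difference between the libraries that has no further replicate.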

How the data were processed

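Single-cell RNA of CD45+ cells and sorted neutrophils was measured by 10x Chromium 3' sequencing in 6 libraries, of which the 2 CD45+ libraries entered the comparisons. The deposited matrices hold raw UMI counts per gene and cell. The submitters' processing notes name Cell Ranger 7.1.0 and the mm10 build. Counts were summed over the cells of each of 4 classes in each library, because cells of 1 library are not replicates, which gave 8 sums. They were tested with edgeR 4.0.16 (R 4.3.3): quasi-likelihood test, TMM scaling, filterByExpr by class, class plus library as terms, Benjamini-Hochberg adjustment over 10100 genes, and a call at an adjusted p under 0.05. The library is the block because the classes of a library come from 1 cell suspension. Over 3376 genes, the deviations of type 1 cells from the class mean correlated with those of the other classes at 0.53, 0.26 and 0.55.

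The 17 genes used in the gates were left out of the tests. With 3 residual degrees of freedom the fit shares 1 estimate of the spread over 4 classes of unequal size. Members and gene lists were chosen with earlier results of these data known. Genes named are list genes and, for each comparison, the 10 with the largest and the 10 with the smallest difference among called genes at 50 CPM or more in both libraries of the higher class, on the same side in both libraries, leaving out gating, mitochondrial and ribosomal genes and unnamed models. A fold against a class at 0 was computed against a floor of 3 counts over the class, and intervals of ratios on 1 to 3 counts and of shares cover counting error only.

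Tested on simulated counts for the comparison with Ccl17-gated cells (10019 genes, 200 changed), the test recovered 58% of 2-fold and 89% of 4-fold changes, with 3 of 150 calls false. For Ccr7-gated cells (10251 genes) it recovered 71% and 95%, with 11 of 177 calls false. For C1q-rich cells (10059 genes) it recovered 62% and 90%, with 21 of 173 calls false. Both libraries of a class were simulated from the same gene proportions, without the differences between libraries that the block takes up. These rates may therefore not hold for the measured counts. Scrublet (scanpy 1.11.5) made 0 automatic calls in both libraries and so did not work as a caller; as an alternative the 700 and 607 cells with the highest scores were removed, 1 and 2 of them type 1 cells. Alternatives were DESeq2 1.42.0, other gates and filters, thinning, no block, 2 classes alone and leaving out sums. Gene coordinates are from GENCODE vM21 and promoters from RefSeq, where 18 of 23 genes looked up had one. Some genes of the lists are counted in the totals and not reported by name here.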

Additional observations from a re-analysis of the deposited data

How the results depend on the processing

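Without the library as a block, 447 genes were higher and 573 lower than in Ccl17-gated cells. With cells thinned to 2000 UMIs, 328 were higher and 509 lower than in Ccl17-gated cells, 782 and 436 against Ccr7-gated cells, and 692 and 1038 against C1q-rich cells. With the sum of 1 class in 1 library left out, 412 to 617 genes were higher and 630 to 869 lower than in Ccl17-gated cells. The same left 906 to 1192 higher and 1295 to 1650 lower than in C1q-rich cells. The mean share of type 1 cells was 0.5% with at least 4 Xcr1 and Clec9a UMIs, 0.764% with an MHC class II share of at least 1%, and 0.622% with cells carrying other lineages' UMIs removed. It was 0.482% without Ccl17-carrying cells and 0.52% with at least 1 Xcr1 UMI, both alternatives chosen after seeing the data. The alternatives were followed gene by gene for 85 of the named differences, of which 80 had passed the test. They were not followed in this way for the other genes named. Among the 85, the sign changed for Il12b (-1.08) and Cxcl9 (-0.75) against the wider class without the C1q and Ccr7 conditions. It otherwise changed only for differences that had not passed the test. Thinning to 2000 UMIs ended the calls of Axl, Egln3, Id2, Mcm3, Mertk, Tap1 and Cxcl9 against Ccl17-gated cells. It also ended the call of Flt3 against Ccr7-gated cells, and all of these kept their direction. Cd86 against Ccr7-gated cells was 0.13 with an MHC class II share of at least 1%, 0.35 with the wider class, 0.18 with other lineages removed and 0.23 after thinning. H2-K1 against Ccl17-gated cells was -0.18 after thinning, and Ldha was 0.010 with DESeq2, 0.0068 with an MHC class II share of at least 1% and 0.039 with other lineages removed. With a sum or a library left out, Batf3 against Ccr7-gated cells ran from -0.65 to 0.49, Cd86 from -0.36 to 0.30, H2-K1 from -0.017 to 0.15 and Ldha from -0.15 to 0.060. The cause of these changes was not tested.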
